A study of Homo sapiens with 8 samples.

Results

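The genes described here are 10 members of the transforming growth factor beta (TGF-β) system, chosen by name: the ligands TGFB1, TGFB2, TGFB3 and INHBA, the receptors TGFBR1 and TGFBR2, the latency proteins LTBP1 and LTBP2, the inhibitor SMAD7 and the target TGFBI. All 10 were represented on the array by a transcript cluster annotated with 1 symbol, out of 18417 genes so annotated. Their mRNA was measured in 786-O, a renal cell carcinoma (RCC) line without functional VHL. The untransfected line (VHL-) and its stable transfectant carrying an overexpression vector for VHL (VHL+) were incubated in normoxia or hypoxia (1% oxygen) for 24 h, with 2 biological replicates for each of the 4 groups and thus 8 arrays. The controls were untransfected and not vector-only cells, the VHL+ cells were 1 transfectant of 1 line, and the effect of VHL cannot be told apart from other differences between the 2 cultures. Values are log2 signals after Robust Multichip Average (RMA), so that a difference of 1 is a 2-fold difference. Signals of different genes come from different probes and are not set against each other.

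TGF-β ligands are made as proproteins, cleaved by furin, and secreted in a latent form in which the cleaved propeptide still encloses the ligand. Latent TGF-β binding proteins (LTBPs) tie this complex to fibrillin microfibrils, and integrins or thrombospondin can release the ligand. Free TGF-β binds the type II receptor TGFBR2, which phosphorylates the type I receptor TGFBR1, and this in turn phosphorylates SMAD2 and SMAD3. SMAD7 blocks the type I receptor. INHBA encodes the subunit of activin A, which signals through the same SMADs by its own receptors. In kidney, the pathway is best known for matrix deposition and fibrosis. VHL is the substrate-binding part of the ubiquitin ligase that marks hypoxia-inducible factor (HIF) α subunits for degradation.

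The median log2 signal of the arrays lay between 6.60 (VHL- hypoxia replicate 1) and 6.91 (VHL+ hypoxia replicate 1). The deposited arrays thus did not share a common median, and fold changes as deposited are not corrected for this. Replicates correlated across transcript clusters with r between 0.991 and 0.994. VHL had a higher signal in VHL+ than in VHL- cells under normoxia (log2 fold change 0.52, SE 0.142, adjusted p = 0.0398) and under hypoxia (0.75, SE 0.142, adjusted p = 0.00211). Of the HIF α subunits, HIF1A had a lower signal in VHL+ cells (-1.95 under normoxia and -2.02 under hypoxia, adjusted p = 4.82e-08 and 4.56e-08), and EPAS1, the main subunit of 786-O cells, had -0.77 (adjusted p = 0.0146) and -0.34 (adjusted p = 0.252). These are mRNA signals, whereas VHL acts on HIF α protein, which the arrays do not measure. With each of the 8 arrays left out in turn, the normoxic difference in VHL ran from 0.43 to 0.61 and passed in 2 of the 8 fits, and it passed in 6 of 8 under hypoxia. All 5 measured markers of renal carcinoma cells (PAX8, PAX2, VIM, KRT8 and KRT18) were above the array median on every array. Of the markers of other cell types, CD68 was above the median on both arrays of every group and the other 3 measured leukocyte markers, the 4 endothelial and the 4 fibroblast markers were not. The replicates of VHL- cells stood apart from each other: 58 of 33297 transcript clusters differed between them by 1 or more on the log2 scale in the same direction under both oxygen conditions, against 10 in VHL+ cells, and INHBA and TGFB2 were among the 58.

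Between VHL+ and VHL- cells, TGFBR2 and LTBP1 passed the test under both oxygen conditions, TGFB1 under normoxia and TGFB2 under hypoxia. The interaction of VHL and hypoxia did not pass for TGFB1 or TGFB2 (adjusted p = 0.651 each), so that a difference between the oxygen conditions was not shown. Under normoxia, 3 of the 10 genes were lower in VHL+ cells (TGFB1, TGFBR2 and LTBP1) and 0 were higher, where 2.69% of all transcript clusters were lower and 2.07% higher. Under hypoxia, 2 were lower (TGFBR2 and LTBP1), where 1.31% of all clusters were lower, and 1 was higher (TGFB2), where 10.3% were higher. The median log2 fold change of the 10 genes was -0.37 under normoxia beside -0.04 over all clusters, and -0.04 under hypoxia beside 0.16 over all clusters. After quantile normalization, LTBP1 was lower in VHL+ cells under normoxia, with 2.72% of all clusters lower and 2.70% higher, and TGFBR2 and LTBP1 were lower under hypoxia, with 2.74% lower and 2.76% higher. TGFB1 and TGFBR2 under normoxia (adjusted p = 0.0824 and 0.0613) and TGFB2 under hypoxia (adjusted p = 0.390) did not pass the threshold of 0.05 on that scale.

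**Figure D1:**
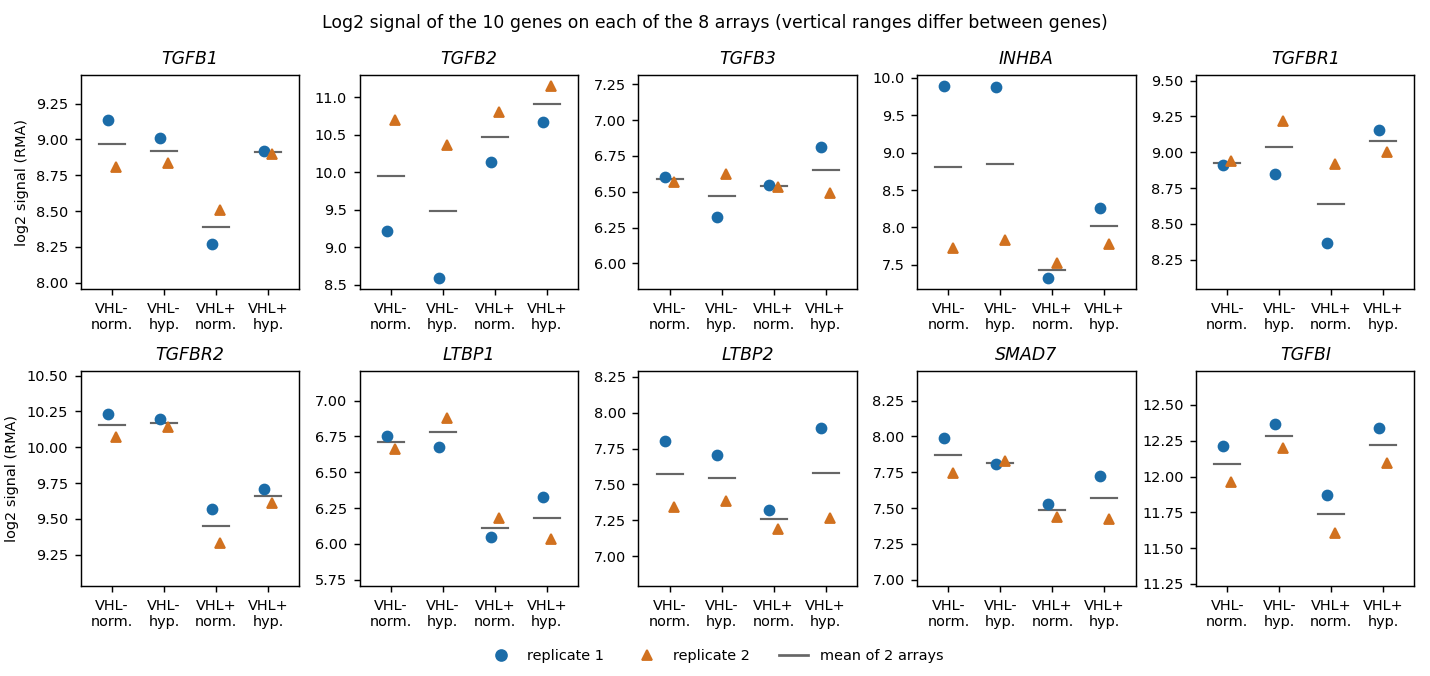
Log2 signal (vertical axis, RMA) of each of the 10 genes on each array, grouped by VHL status and oxygen (horizontal axis). Circles and triangles are replicates 1 and 2, bars are the means of 2 arrays, and the vertical range differs between genes. TGFBR2 and LTBP1 sit lower on all 4 VHL+ arrays than on all 4 VHL- arrays, and INHBA and TGFB2 differ widely between the VHL- replicates.

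The 4 genes that passed in a comparison of VHL+ with VHL- cells are shown with the 250 bases before a transcription start, since VHL acts on HIF and HIF sites often lie near a start. They are given 5′ to 3′ on the strand of the gene, from RefSeq on GRCh38.p14. For TGFBR2 and LTBP1, which have several annotated starts, the most upstream start is shown. Capitals mark ACGTG or GCGTG, the core letters of a HIF binding site, on either strand, so that they appear as CACGT or CACGC where the match is on the other strand. The windows are chr19:41353923-41354172 (minus strand) for TGFB1, chr1:218345086-218345335 (plus) for TGFB2, chr3:30606106-30606355 (plus) for TGFBR2 and chr2:32946703-32946952 (plus) for LTBP1.
TGFB1: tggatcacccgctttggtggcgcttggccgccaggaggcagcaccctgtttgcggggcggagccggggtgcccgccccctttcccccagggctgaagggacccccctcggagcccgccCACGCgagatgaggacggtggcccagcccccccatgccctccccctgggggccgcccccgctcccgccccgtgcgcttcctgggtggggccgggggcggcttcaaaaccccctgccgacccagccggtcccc
TGFB2: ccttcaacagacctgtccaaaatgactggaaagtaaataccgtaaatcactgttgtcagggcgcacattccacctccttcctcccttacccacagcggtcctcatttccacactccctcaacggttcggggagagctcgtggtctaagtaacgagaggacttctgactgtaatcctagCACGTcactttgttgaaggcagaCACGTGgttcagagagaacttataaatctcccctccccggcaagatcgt
TGFBR2: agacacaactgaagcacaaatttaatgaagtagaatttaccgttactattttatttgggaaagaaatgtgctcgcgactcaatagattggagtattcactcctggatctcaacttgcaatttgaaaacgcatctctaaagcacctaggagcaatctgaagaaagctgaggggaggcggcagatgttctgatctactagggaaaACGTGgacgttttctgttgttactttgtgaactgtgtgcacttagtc
LTBP1: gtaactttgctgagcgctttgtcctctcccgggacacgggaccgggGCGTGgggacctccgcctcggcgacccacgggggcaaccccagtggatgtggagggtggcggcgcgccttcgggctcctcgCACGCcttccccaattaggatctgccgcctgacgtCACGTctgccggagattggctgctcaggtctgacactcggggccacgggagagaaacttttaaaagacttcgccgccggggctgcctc
Counted from the start, the match of TGFB1 begins at position -132 and that of TGFBR2 at -47. TGFB2 has matches at -72, -49 and -48, the latter pair being 1 CACGTG read on both strands, and LTBP1 has matches at -204, -123 and -88. Either motif occurs in 43.2% of 35116 human promoter windows of 250 bases, ACGTG in 18.5% and GCGTG in 32.2%. The windows of INHBA, LTBP2 and TGFBI hold neither, and at least 1 window of TGFB3, TGFBR1 and SMAD7 holds a match, although none of these 6 genes passed in any comparison. The windows at the other starts of TGFBR2 and LTBP1 hold no match. A match of letters is a description of the sequence, and binding was not measured in these samples. The start that is used in 786-O cells was not measured either.

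TGFB1, the ligand that is most studied in fibrosis, had log2 signals of 9.13 and 8.81 (normoxia) and 9.01 and 8.83 (hypoxia) in VHL- cells. TGFB1 in VHL+ cells had 8.27 and 8.51 (normoxia) and 8.92 and 8.90 (hypoxia). Both VHL+ arrays under normoxia lay below the other 6. TGFB1 was 1.49-fold lower in VHL+ than in VHL- cells under normoxia (log2 fold change -0.58, SE 0.149, adjusted p = 0.0282). Under hypoxia the log2 fold change was -0.01 (95% confidence interval -0.32 to 0.30, adjusted p = 0.963). That value depended on the scaling: it was -0.29 after quantile normalization (adjusted p = 0.401) and -0.19 after median centring (adjusted p = 0.524). Hypoxia vs. normoxia in VHL+ cells gave 0.52 (SE 0.149), with an unadjusted p of 0.00259 and an adjusted p of 0.320, and in VHL- cells -0.05. The difference between these effects, the interaction of VHL and hypoxia, was 0.57 (SE 0.210, adjusted p = 0.651), so a dependence of the VHL effect on oxygen was not shown over all clusters. After quantile normalization hypoxia in VHL+ cells gave 0.35 and the interaction was 0.30. The normoxic call was lost without VHL- normoxia replicate 1 (-0.42, adjusted p = 0.474), without VHL+ normoxia replicate 1 (-0.46, adjusted p = 0.158), and without either VHL+ array under hypoxia (adjusted p = 0.133), which enter only through the spread.

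TGFB2, another isoform of the ligand, had log2 signals of 9.21 and 10.69 (normoxia) and 8.58 and 10.37 (hypoxia) in VHL- cells. TGFB2 in VHL+ cells had 10.14 and 10.80 (normoxia) and 10.66 and 11.15 (hypoxia). Replicate 1 lay 1.48 to 1.78 below replicate 2 in VHL- cells, and 0.49 to 0.66 below it in VHL+ cells. Under hypoxia both VHL+ arrays were above both VHL- arrays, whereas under normoxia the groups overlapped. TGFB2 was 2.70-fold higher in VHL+ cells under hypoxia (log2 fold change 1.43, SE 0.430, adjusted p = 0.0368), and under normoxia the log2 fold change was 0.52 (95% confidence interval -0.39 to 1.42, adjusted p = 0.851). The interaction was 0.91 (SE 0.608, adjusted p = 0.651). The call under hypoxia rests on VHL- hypoxia replicate 1, without which the log2 fold change was 0.54 (adjusted p = 0.178), and it was also lost without VHL+ hypoxia replicate 1 (1.68, adjusted p = 0.405) or replicate 2 (1.19, adjusted p = 0.287).

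TGFB3, the ligand of palate and wound biology, had log2 signals between 6.32 and 6.81 on the 8 arrays and lay below the array median on each of them. Its values were 6.60 and 6.57 in VHL- cells and 6.55 and 6.53 in VHL+ cells under normoxia. Under hypoxia they were 6.32 and 6.62 in VHL- cells and 6.81 and 6.49 in VHL+ cells. The log2 fold changes of VHL+ vs. VHL- cells were -0.04 under normoxia and 0.18 under hypoxia (adjusted p = 1.00 and 0.478).

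INHBA had log2 signals of 9.89 and 7.72 (normoxia) and 9.88 and 7.83 (hypoxia) in VHL- cells. INHBA in VHL+ cells had 7.32 and 7.53 (normoxia) and 8.27 and 7.78 (hypoxia). Replicate 1 of VHL- cells was above all other arrays under both oxygen conditions, by 2.17 and 2.06 over replicate 2, while the VHL+ replicates differed by -0.21 and 0.49. Among all clusters, ordered by the smaller of these differences, INHBA was in rank 5 and TGFB2 in rank 15 in VHL- cells. The log2 fold change of VHL+ vs. VHL- cells was -1.38 under normoxia (95% confidence interval -2.48 to -0.28, adjusted p = 0.182) and -0.83 under hypoxia (-1.93 to 0.27, adjusted p = 0.358). Neither passed, and the sizes depended on which VHL- replicate was used: without VHL- normoxia replicate 2 the normoxic value was -2.47, and without replicate 1 it was -0.30. The TGFB2 and INHBA differences between the VHL- replicates ran in opposite directions, with higher INHBA and lower TGFB2 in replicate 1.

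**Figure D2:**
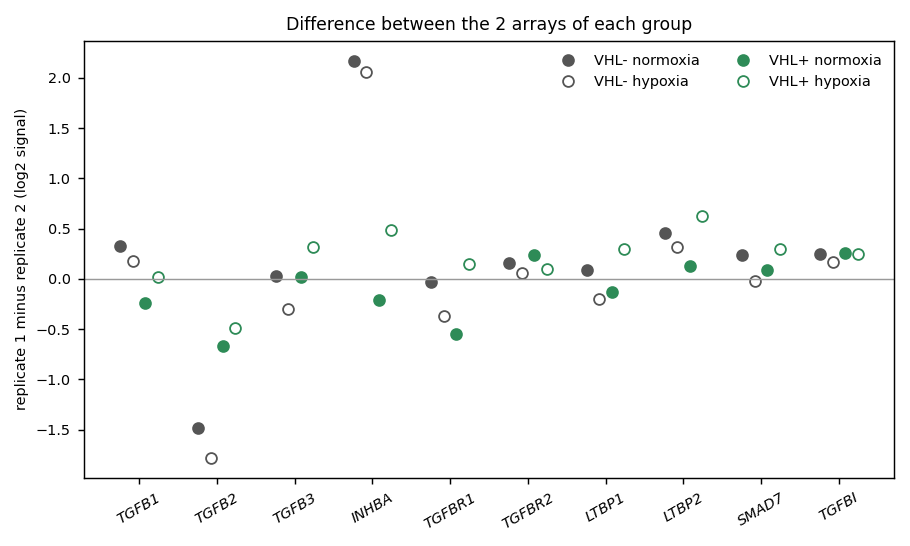
Difference of replicate 1 minus replicate 2 in log2 signal (vertical axis) for each of the 10 genes (horizontal axis). Filled and open points are normoxia and hypoxia, grey is VHL- and green is VHL+ cells. In VHL- cells INHBA lies at 2.17 and 2.06 and TGFB2 at -1.48 and -1.78.

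The receptor TGFBR2 was lower in VHL+ cells under both oxygen conditions. Its log2 signals were 10.23 and 10.07 (normoxia) and 10.20 and 10.14 (hypoxia) in VHL- cells. TGFBR2 in VHL+ cells had 9.57 and 9.33 (normoxia) and 9.71 and 9.61 (hypoxia). The 4 VHL+ arrays were all below the 4 VHL- arrays. TGFBR2 was 1.63-fold lower under normoxia (log2 fold change -0.70, SE 0.139, adjusted p = 0.00480) and 1.42-fold lower under hypoxia (-0.51, SE 0.139, adjusted p = 0.0231). The call under normoxia was lost without VHL- normoxia replicate 1 (-0.62, adjusted p = 0.0738), and the call under hypoxia was lost without VHL- hypoxia replicate 1 (-0.48, adjusted p = 0.122) or without VHL+ hypoxia replicate 1 (-0.56, adjusted p = 0.142) or replicate 2 (-0.46, adjusted p = 0.122). Of the genes with 1 symbol, CNRIP1, TMEM92 and ZNF85 had the pattern most like that of TGFBR2 over the 8 arrays, with a root mean square difference of the gene-centred log2 signals of 0.0663, 0.0872 and 0.0915, where the median over genes was 0.369.

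TGFBR1, the type I receptor, had log2 signals of 8.91 and 8.94 (normoxia) and 8.85 and 9.22 (hypoxia) in VHL- cells. TGFBR1 in VHL+ cells had 8.37 and 8.92 (normoxia) and 9.15 and 9.00 (hypoxia). The groups overlapped, and VHL+ normoxia replicate 1 was the lowest array. The log2 fold changes of VHL+ vs. VHL- cells were -0.28 under normoxia and 0.05 under hypoxia (adjusted p = 0.602 and 0.870), and hypoxia in VHL+ cells gave 0.44 (SE 0.172, adjusted p = 0.676).

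LTBP1, which ties latent TGF-β to the matrix, was lower in VHL+ cells under normoxia and hypoxia. Its log2 signals were 6.75 and 6.67 (normoxia) and 6.68 and 6.88 (hypoxia) in VHL- cells. LTBP1 in VHL+ cells had 6.05 and 6.18 (normoxia) and 6.33 and 6.04 (hypoxia). All 4 VHL+ arrays lay below all 4 VHL- arrays, at a signal below the array median in every group except VHL- cells under hypoxia. LTBP1 was 1.51-fold lower under normoxia (log2 fold change -0.59, 95% confidence interval -0.90 to -0.29, adjusted p = 0.0200) and under hypoxia (-0.60, -0.90 to -0.29, adjusted p = 0.0116), and after quantile normalization it passed in both comparisons. The call under normoxia was lost without VHL- normoxia replicate 1 or 2 (adjusted p = 0.156 and 0.0602), VHL+ normoxia replicate 1 (0.0790) or a VHL+ array under hypoxia (0.0605 each), and under hypoxia it was lost without VHL- hypoxia replicate 2 (0.0587) or VHL+ hypoxia replicate 1 or 2 (0.0713 and 0.116). The log2 fold change stayed between -0.74 and -0.45 in these leave-outs. FAM89A, IFT20 and PIAS2 had the pattern most like that of LTBP1, with root mean square differences of 0.0616, 0.0692 and 0.0701, where the median over genes was 0.353.

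LTBP2, a family member that binds microfibrils but not the small latent complex, had log2 signals of 7.80 and 7.34 (normoxia) and 7.70 and 7.38 (hypoxia) in VHL- cells. LTBP2 in VHL+ cells had 7.32 and 7.19 (normoxia) and 7.89 and 7.26 (hypoxia). Replicate 1 was higher in each of the 4 groups. The log2 fold changes were -0.32 under normoxia and 0.04 under hypoxia (adjusted p = 0.596 and 0.906). The 95% confidence interval under hypoxia was -0.37 to 0.44.

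SMAD7, the feedback inhibitor of the receptors, had log2 signals of 7.99 and 7.75 (normoxia) and 7.81 and 7.83 (hypoxia) in VHL- cells. SMAD7 in VHL+ cells had 7.53 and 7.44 (normoxia) and 7.72 and 7.43 (hypoxia). All 4 VHL+ arrays were below all 4 VHL- arrays. The log2 fold changes of -0.38 under normoxia and -0.24 under hypoxia did not pass (adjusted p = 0.180 and 0.327).

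TGFBI, a secreted matrix protein that TGF-β induces, had log2 signals of 12.21 and 11.96 (normoxia) and 12.37 and 12.20 (hypoxia) in VHL- cells. TGFBI in VHL+ cells had 11.87 and 11.61 (normoxia) and 12.34 and 12.10 (hypoxia). Both VHL+ arrays under normoxia were below the other 6. The log2 fold change of VHL+ vs. VHL- cells was -0.35 under normoxia and -0.06 under hypoxia (adjusted p = 0.283 and 0.797). Hypoxia vs. normoxia in VHL+ cells gave 0.48 (SE 0.151), with an unadjusted p of 0.00505 and an adjusted p of 0.438.

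**Figure D3:**
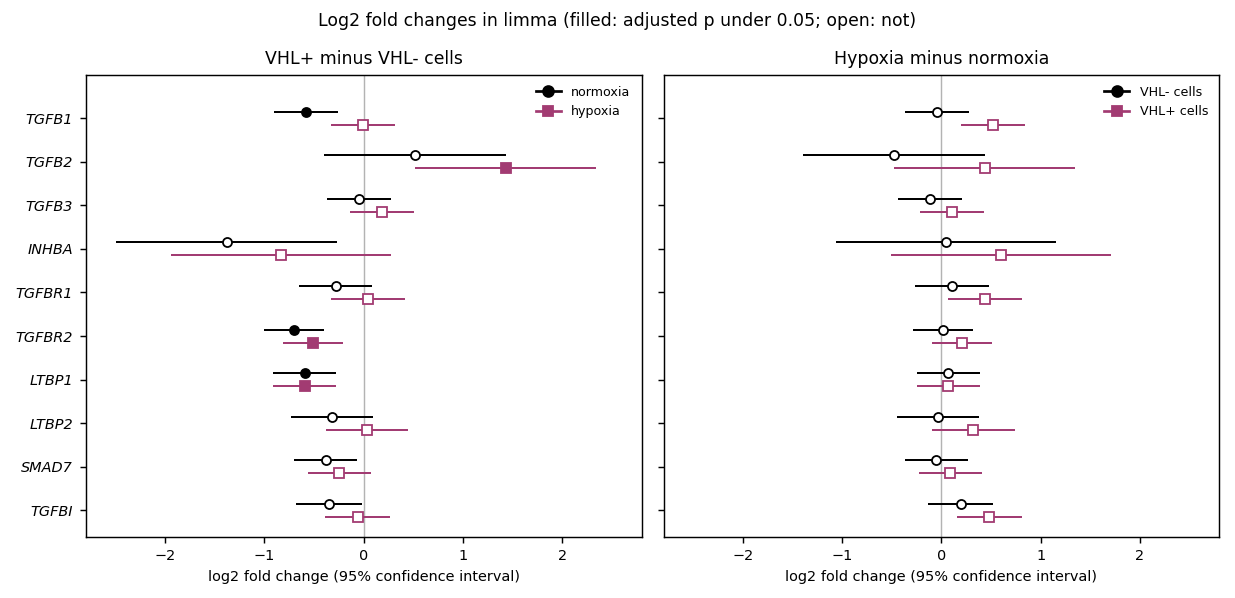
Log2 fold change with its 95% confidence interval (horizontal axis) of the 10 genes (vertical axis), for VHL+ vs. VHL- cells on the left and hypoxia vs. normoxia on the right. Filled points passed an adjusted p of 0.05 in limma and open points did not. TGFBR2 and LTBP1 are filled under normoxia and hypoxia, TGFB1 under normoxia, TGFB2 under hypoxia, and no point on the right is filled.

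For hypoxia itself none of the 10 genes passed the threshold. In VHL- cells 0 of 10 passed, where 0.0661% of all clusters passed, with adjusted p between 0.806 and 0.972. In VHL+ cells 0 of 10 passed, where 0.153% of all clusters passed. The number of log2 fold changes above 0 depended on the scaling. In VHL+ cells it was 10 of 10 as deposited, with a median of 0.38 beside 0.09 over all clusters, and 9 of 10 after quantile normalization, with a median of 0.22. In VHL- cells it was 5 of 10 as deposited, with a median of -0.01 beside -0.12 over all clusters, and 9 of 10 after quantile normalization, with a median of 0.09. An unadjusted p under 0.05 in limma was reached by 0 of the 10 genes in VHL- cells, and by 1765 of all 33297 clusters. In VHL+ cells 3 genes (TGFB1, TGFBR1 and TGFBI) reached it, and 2052 of all clusters. After quantile normalization the limma p of these 3 in VHL+ cells was 0.0591, 0.0519 and 0.0463, with 1815 of all clusters under 0.05. For the interaction of VHL and hypoxia 0 of 10 passed, where 0.00601% of all clusters passed. TGFB1 was the 1 gene with an unadjusted p under 0.05 in limma (0.0146, and 0.208 after quantile normalization), as were 1869 of all clusters. The intervals of TGFB2 and INHBA, the genes with the widest replicate spread, reached from -1.38 to 0.42 and from -1.05 to 1.15 for hypoxia in VHL- cells. This fit does not pair same-numbered arrays, so its intervals include the offset between the replicates, and it did not exclude changes of 2-fold. From normoxia to hypoxia, INHBA went from 9.89 to 9.88 in replicate 1 and from 7.72 to 7.83 in replicate 2 of VHL- cells. TGFB2 went from 9.21 to 8.58 and from 10.69 to 10.37. The change within same-numbered arrays was not tested.

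The surrounding pathway was read from 5 lists. SKIL and PMEPA1 are both in the list of SMADs and intracellular regulators and in that of TGF-β induced transcripts. The counts stand beside the shares of all clusters. In VHL+ cells 2.07% were higher and 2.69% lower under normoxia, and 10.3% were higher and 1.31% lower under hypoxia. After quantile normalization these shares were 2.70% and 2.72% under normoxia and 2.76% and 2.74% under hypoxia, and the median over all clusters was near 0 in both comparisons. Of 15 other ligands of the family, 1 was lower and 0 were higher in VHL+ cells under normoxia, and 1 was higher and 0 were lower under hypoxia. After quantile normalization 0 were higher and 1 was lower under each condition. The lower one was BMP2, a bone morphogenetic protein, with log2 signals of 7.61 and 7.58 in VHL- and 6.92 and 6.85 in VHL+ cells under normoxia (log2 fold change -0.71, adjusted p = 0.00902). The higher one was GDF11, an activin-like ligand (0.50, adjusted p = 0.0229), which did not pass after quantile normalization (0.30, adjusted p = 0.0891) or without VHL+ hypoxia replicate 1 (0.36, adjusted p = 0.204), VHL- hypoxia replicate 1 (adjusted p = 0.0955) or VHL- hypoxia replicate 2 (adjusted p = 0.0515). The median log2 fold change of the list was -0.05 under normoxia beside -0.04 over all clusters, and 0.11 under hypoxia beside 0.16. After quantile normalization the hypoxic median was -0.02.

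Of 12 other receptors and coreceptors, 2 were higher in VHL+ cells under normoxia and 4 under hypoxia, and 0 were lower. After quantile normalization 3 were higher under normoxia and 2 under hypoxia, and 0 were lower. TGFBRAP1, a protein that binds TGF-β receptors and SMAD4, had log2 signals of 8.34 and 8.52 in VHL- and 9.44 and 9.56 in VHL+ cells under normoxia. Its log2 fold change was 1.07 under normoxia (SE 0.138, adjusted p = 8.37e-05) and 1.12 under hypoxia (SE 0.138, adjusted p = 4.1e-05). BMPR1B, a type I receptor for BMPs, rose by 0.91 and 1.01 (adjusted p = 0.000566 and 0.000156). ACVR2A and BMPR2, type II receptors for activins and BMPs, passed under hypoxia with 0.64 and 0.48 (adjusted p = 0.0109 and 0.0440) and did not pass there after quantile normalization (adjusted p = 0.103 and 0.636). Without VHL+ hypoxia replicate 1, BMPR1B (adjusted p = 0.0511), ACVR2A (0.231) and BMPR2 (0.380) did not pass under hypoxia. Without VHL+ hypoxia replicate 2 the same held for ACVR2A (adjusted p = 0.101) and BMPR2 (0.113), and BMPR2 was also lost without either VHL- array under hypoxia (0.0682 and 0.126). The median of the list was 0.08 under normoxia beside -0.04 over all clusters, and 0.34 under hypoxia beside 0.16. Under hypoxia all 12 log2 fold changes were above 0 as deposited, and 8 of 12 after quantile normalization, where the median was 0.09.

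Of 18 SMADs and intracellular regulators, 1 was higher (SMAD9) and 1 lower (SMAD4) in VHL+ cells under normoxia, and 4 were higher and 0 lower under hypoxia. After quantile normalization 3 were higher and 1 lower under normoxia, and 2 were higher and 1 lower under hypoxia. SMAD4 passed under normoxia in 2 of the 8 fits that leave out an array. SMAD9, a SMAD of the BMP branch, had log2 signals of 6.98 and 7.16 in VHL- and 7.77 and 8.53 in VHL+ cells under normoxia, and its log2 fold change was 1.08 under normoxia and 1.11 under hypoxia (adjusted p = 0.00286 and 0.00139). SMAD5, of the same branch, STRAP, which binds SMAD7, and SKI, which represses SMAD targets, passed under hypoxia with 0.63, 0.65 and 0.52 (adjusted p = 0.00569, 0.00726 and 0.0205). After quantile normalization SKI (adjusted p = 0.237) and SMAD9 (0.0734) did not pass under hypoxia. Without VHL+ hypoxia replicate 1 or 2, SMAD9 (adjusted p = 0.0944 and 0.120), SMAD5 (0.114 and 0.0674), STRAP (0.156 and 0.0958) and SKI (0.207 and 0.0816) did not pass under hypoxia, nor did SMAD9 under normoxia (0.0858 each), and SKI was also lost without VHL- hypoxia replicate 1 (0.248). The median of the list was 0.06 under normoxia beside -0.04 over all clusters, and 0.17 under hypoxia beside 0.16. After quantile normalization the hypoxic median was -0.09.

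Of 19 genes for latency, activation and extracellular inhibition, 2 were higher (THBS1 and ITGB6) and 2 lower (FBN1 and LTBP3) in VHL+ cells under normoxia, and 4 were higher (THBS1, FURIN, FSTL1 and FSTL3) and 1 lower (FBN1) under hypoxia. After quantile normalization 1 was higher and 2 were lower under normoxia, and 2 were higher and 2 lower under hypoxia. FBN1, fibrillin-1 of the microfibrils that LTBPs bind, had log2 signals of 8.70 and 7.75 (normoxia) and 8.93 and 8.31 (hypoxia) in VHL- cells. FBN1 in VHL+ cells had 6.03 and 6.25 (normoxia) and 6.25 and 6.14 (hypoxia), below the array median on each of these arrays. It was 4.25-fold lower in VHL+ cells under normoxia (log2 fold change -2.09, adjusted p = 1.75e-05) and 5.37-fold lower under hypoxia (-2.43, adjusted p = 2.94e-06), and kept both calls with each array left out. LTBP3, which also binds the latent complex, was lower under normoxia (-0.93, adjusted p = 0.00218) and had -0.38 under hypoxia (adjusted p = 0.170). The normoxic call of LTBP3 was lost without either VHL+ array under hypoxia (adjusted p = 0.0567). THBS1, thrombospondin-1, which can activate latent TGF-β, was higher under both conditions (0.99 and 1.28, adjusted p = 0.000863 and 5.17e-05). FURIN, the protease that cleaves the proproteins, had 0.34 under normoxia (adjusted p = 0.186) and was higher under hypoxia (0.93, adjusted p = 0.000156). With each array left out, ITGB6 passed in 4 of 8 fits under normoxia, and FSTL1 and FSTL3 in 5 of 8 each under hypoxia. LTBP4, which passed in neither comparison, had mean log2 signals of 8.54 in VHL- and 8.44 in VHL+ cells under normoxia, and of 8.40 and 8.86 under hypoxia. The median of the list was -0.04 under normoxia, as over all clusters, and 0.21 under hypoxia beside 0.16. After quantile normalization the hypoxic median was 0.02.

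The last list held 21 measured transcripts that were taken as induced by TGF-β, among them ID1, ID2 and ID3. Whether TGF-β induces each of them in 786-O cells was not tested. Under normoxia 3 were higher (COL4A1, TAGLN and CCN2) and 3 lower (TGM2, CDH2 and SNAI2) in VHL+ cells. Under hypoxia 4 were higher (the same 3 and ACTA2) and 1 lower (SNAI2). After quantile normalization 3 were higher and 2 lower under normoxia, and 3 were higher and 0 lower under hypoxia. COL4A1, a basement membrane collagen, had log2 signals of 7.47 and 7.55 in VHL- and 9.18 and 9.59 in VHL+ cells under normoxia (log2 fold change 1.87, adjusted p = 4.15e-07), and rose by 2.25 under hypoxia (adjusted p = 5.57e-08). TAGLN, an actin-binding protein, rose by 1.92 and 2.65 (adjusted p = 5.54e-06 and 9.49e-08). CCN2, connective tissue growth factor, rose by 1.56 under normoxia (adjusted p = 6.51e-05) and by 0.94 under hypoxia (adjusted p = 0.00452), where it did not pass after quantile normalization (adjusted p = 0.263) or without VHL+ hypoxia replicate 1 (0.61, adjusted p = 0.266). TGM2, a crosslinking enzyme, was lower under normoxia (-1.51, adjusted p = 0.000177) and had -0.55 under hypoxia (adjusted p = 0.103). The median of the list was -0.03 under normoxia beside -0.04 over all clusters, and 0.21 under hypoxia beside 0.16, and after quantile normalization the hypoxic median was 0.05. With each array left out, CDH2 passed in 5 and SNAI2 in 6 of 8 fits under normoxia, and SNAI2 and ACTA2 in 6 of 8 each under hypoxia. TGFBI itself did not pass in any comparison. In all 5 lists 0 genes passed for hypoxia in either cell type or for the interaction.

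**Figure D4:**
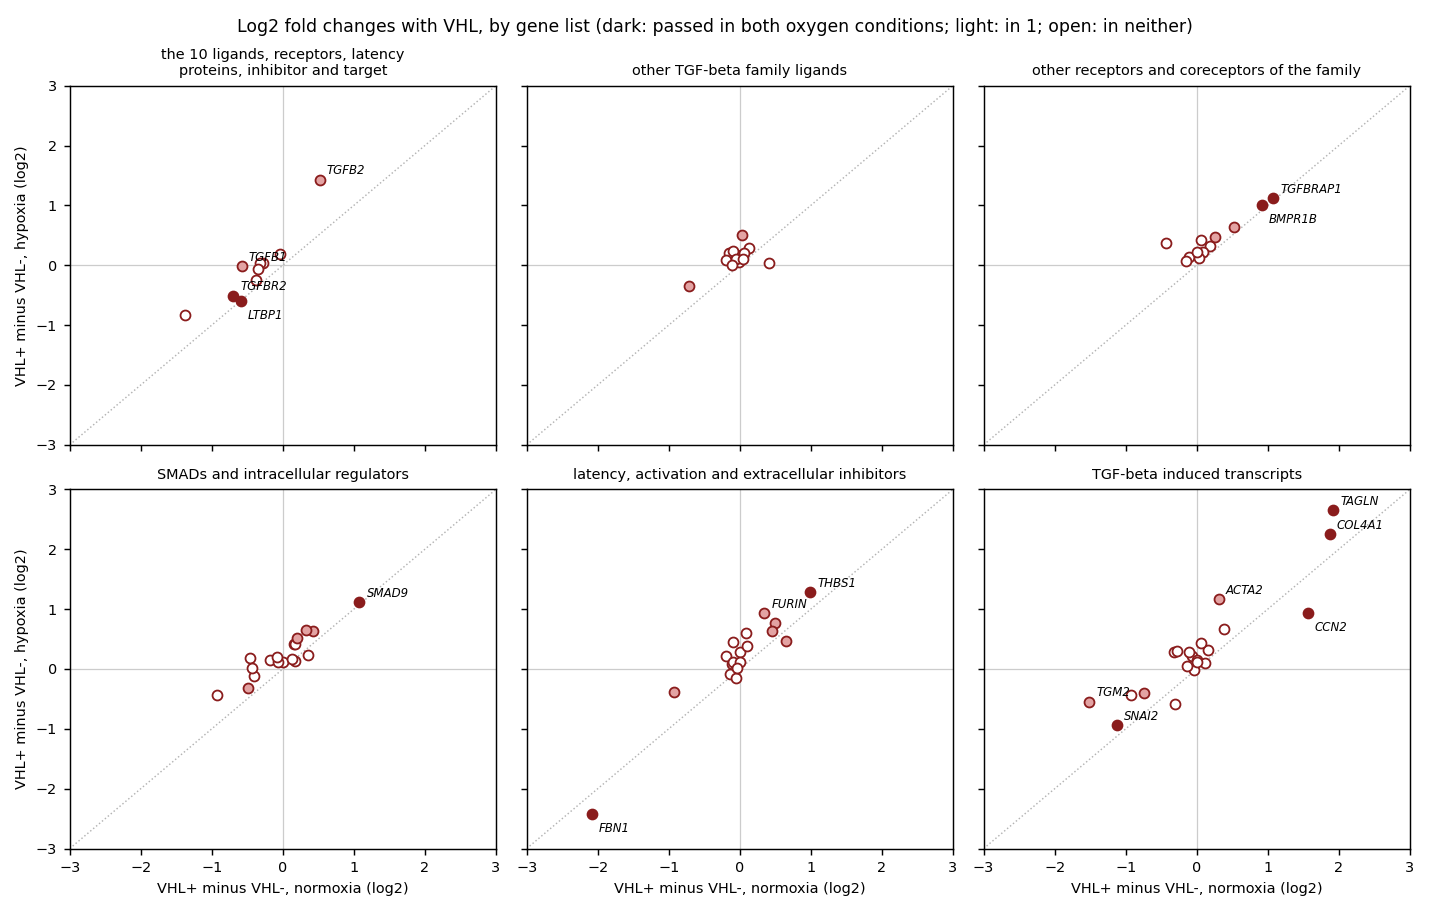
Log2 fold change of VHL+ vs. VHL- cells under normoxia (horizontal axis) and under hypoxia (vertical axis), for the 10 genes and 5 pathway lists. Each point is a gene, dark points passed under both oxygen conditions, light points under 1 and open points under neither, and the dotted line marks equal values. TGFBR2, LTBP1, FBN1 and SNAI2 lie low under both conditions, and TGFBRAP1, BMPR1B, SMAD9, THBS1, COL4A1, TAGLN and CCN2 lie high.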

How the data were processed

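Total RNA had been amplified, labelled and hybridized to Affymetrix Human Gene 1.0 ST arrays, 1 for each of 8 samples. The authors normalized the arrays by RMA in Partek (names from the submitters' processing notes, versions not given in the sources used here) and deposited log2 signals for 33297 transcript clusters. No further transformation was made. The platform annotation gave 19460 clusters 1 symbol, 1754 several and 12083 none, and a gene is its cluster with 1 symbol and the highest mean. All clusters were tested with limma 3.58.1 in R 4.3.3, with 1 mean per group over 8 arrays, 4 residual and 14.0 prior degrees of freedom, Benjamini-Hochberg adjustment over all clusters and a threshold of 0.05. No filter on low signals was applied. The fit was tested on simulated data. The number of arrays limits the precision.

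The 10 genes and the lists were chosen with earlier results of these data known. All 10 genes are named, with up to 4 passing genes of each list by smallest adjusted p, the 3 genes most like each gene that passed under both oxygen conditions, and VHL, HIF1A and EPAS1. Genes named outside this rule (SMAD4, LTBP4, ITGB6, FSTL1, FSTL3, CDH2, SNAI2, ACTA2, and those under the other observations) were chosen after their values were seen. Alternatives were quantile normalization, median centring, a fit without the uninvolved groups, and eBayes with trend and robust options. Others were removal of dim clusters, 1-symbol clusters, the mean of a gene's clusters, the replicate block and each array left out. A one-way test with equal variances was also run on the compared groups alone, at the p threshold of the paper's methods (0.005). It does not repeat the authors' own analysis of variance. Leaving out both VHL- arrays of a replicate number was chosen after seeing the data. Promoter windows came from RefSeq (GRCh38.p14).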

Additional observations from a re-analysis of the deposited data

How the results depend on the processing

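Of the 10 genes, 3 passed between VHL+ and VHL- cells in normoxia and 3 in hypoxia, where 1587 and 3873 of all 33297 clusters passed. After quantile normalization 1 passed under normoxia and 2 under hypoxia, where 1805 and 1831 of all clusters passed. With the compared groups alone 0 and 4 passed, where 250 and 4005 of all clusters passed. By the one-way test on the compared groups alone, 0 passed under normoxia and 0 under hypoxia, both at an unadjusted p under 0.005 and after adjustment. Without both VHL- replicate 1 arrays 0 passed under normoxia and 1 under hypoxia, and without both VHL- replicate 2 arrays 4 and 2. With each array left out, 0 to 4 genes passed under normoxia, 0 to 4 under hypoxia, 0 to 2 for hypoxia in VHL- cells, 0 to 1 for hypoxia in VHL+ cells and 0 to 1 for the interaction. The cause of these shifts was not tested. INHBA for hypoxia vs. normoxia in VHL- cells (0.05 with all arrays) ran from -1.04 without VHL- normoxia replicate 2 (adjusted p = 0.000725) to 1.13 without replicate 1, and was past the threshold at both ends. In some fits limma gave all clusters a common spread, so calls of INHBA and TGFB2 there do not reflect their own replicate spread. These were the fits without a VHL- normoxia array, without both VHL- arrays of a replicate number, and with the replicate block. The fits of the compared groups alone under hypoxia and in VHL+ cells were the same in this. Without a VHL- hypoxia array the spread was nearly common (111 prior degrees of freedom). Of 970 values of the 10 genes under the alternatives, 894 kept their side of the threshold, of which 70 changed sign while passing in neither setting. A further 49 fell below the threshold, 26 rose above it and 1, the INHBA value above, changed direction.

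The replicate numbers were not taken as pairs in the main fit. Deviations of same-numbered arrays from their group means correlated with r = 0.605 between normoxia and hypoxia in VHL- cells. In VHL+ cells this correlation was 0.305, and between VHL- and VHL+ groups it ran from 0.0503 to 0.210. The replicate block fits 1 shift for both cell types, and pairing within each cell type was not tested. With the replicate block, 5 genes passed under normoxia (TGFB2 and INHBA in addition) and 4 under hypoxia (INHBA in addition). For hypoxia 0 passed in VHL- cells and 1 in VHL+ cells (INHBA, 0.60, adjusted p = 0.0222), and for the interaction 1 (TGFB2, 0.91, adjusted p = 0.0198). Of all clusters 2518, 4990, 220, 336 and 98 passed in this fit, in the same order.

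Over all clusters, 1587 passed under normoxia, and 250 to 2551 under the alternatives of limma. Under hypoxia 3873 passed, with 256 to 5090 under these alternatives. For hypoxia 22 passed in VHL- cells (0 to 282) and 51 in VHL+ cells (0 to 354), and for the interaction 2 (0 to 203). The one-way test on the compared groups was run for VHL under normoxia and hypoxia and for hypoxia in VHL- and VHL+ cells. In this order it gave 288, 400, 253 and 121 clusters at an unadjusted p under 0.005, and 1, 1, 0 and 0 after adjustment. These are not counts from the authors' own analysis of variance. Median centring gave 849 higher and 574 lower clusters for VHL under hypoxia, against 3437 and 436 as deposited.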

Other observations

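The split between the VHL- replicates seen in INHBA and TGFB2 was shared by genes outside the TGF-β system, which were chosen after their values were seen. In VHL- cells, CCL2, a monocyte chemokine, was higher in replicate 1 by 3.21 under normoxia and 2.70 under hypoxia on the log2 scale, and LIPG, endothelial lipase, by 2.68 and 2.86. PLAC8 was lower in replicate 1 by differences of -2.52 and -2.67, MMP7, a matrix metalloprotease, by -2.51 and -2.37, and LUM, the matrix proteoglycan lumican, by -2.36 and -2.01. In VHL+ cells CCL2 differed by -0.36 and -0.98, LIPG by -0.18 and 0.37, PLAC8 by 0.31 and 0.76, MMP7 by -1.09 and -0.88, and LUM by -0.03 and 0.65. What set the VHL- replicates apart was not tested.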
